A study of Rattus norvegicus with 36 samples.

Results

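Luminal epithelial genes are genes that mark the inner, milk-facing cell layer of mammary ducts and alveoli. The set described here has 10 named genes: the transcription factors Elf5, Ehf and Foxa1, the keratins Krt8, Krt18 and Krt19, the surface proteins Epcam and Cd24, and the junction proteins Cldn3 and Cdh1. Its members are the probe sets of the array whose platform annotation gives 1 of these symbols, which are 11 of 31099 probe sets, for 10 of 14217 genes named by a single symbol. Of these 11, 9 probe sets for 9 genes passed the filter on dim values and were tested. The Foxa1 probe set and a second probe set of Cdh1 were above the 40th percentile of their array on 0 of 36 arrays. Foxa1 lay between 3.23 and 3.90 and the dim Cdh1 probe set between 2.99 and 3.34 on the log2 scale, so these arrays give no usable value for Foxa1, and Cdh1 was read by its brighter probe set alone.

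The mammary epithelium has an inner luminal layer and an outer basal or myoepithelial layer. Luminal cells carry the simple keratins, in which KRT8 pairs with KRT18 to form intermediate filaments, and they are sealed by E-cadherin (Cdh1) and claudins. ELF5 is an ETS family transcription factor needed for alveolar development and milk secretion, EHF is another epithelial ETS factor, and FOXA1 opens chromatin for the estrogen receptor in hormone-sensing luminal cells.

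Expression was measured on Affymetrix arrays in mammary glands of 2 inbred rat strains, Cop (Copenhagen), which resists mammary tumours induced by N-nitrosomethylurea (NMU), and F344 (Fischer), which is susceptible. NMU is an alkylating carcinogen that methylates DNA. Rats received NMU or saline vehicle (the controls) at 55 days of age, and glands were taken 6 h, 1 d or 30 d afterwards. This gives 12 groups of 3 arrays: F344 control, F344 NMU, Cop control and Cop NMU, each at 6 h, 1 d and 30 d. The replicates are labelled biological, but separate animals are not stated, so the p-values measure only the spread between these arrays. Values are the deposited log2 expression values, array medians were 5.66 to 5.77, and precision is limited by the number of arrays. Cop NMU array 3 at 30 d stood apart from its group in these genes, so NMU comparisons in Cop at 30 d, and correlations over arrays, are given with and without it. All 9 tested luminal genes were above their array's 40th percentile on 35 or 36 of 36 arrays, and 13 adipocyte and 13 basal genes also passed the filter. The 9 were selected by that filter, and 20749 of all 31099 probe sets passed it. Passing it is therefore no check of the labelled tissue. "Early" below means 6 h and 1 d controls of a strain pooled (6 arrays).

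Promoter windows of 300 bases, from 250 before to 50 after the transcription start, were found for 5 of the 10 genes in RefSeq (build GRCr8, rat). The windows of Krt8 and Krt18 are shown because these genes tracked closest over arrays of any pair of the 9, by a narrow margin. That of Cd24 is shown because the gene was among those called most often. Krt8 lies at chr7:135010290-135010589 on the minus strand, Krt18 at chr7:135035918-135036217 on the plus strand and Cd24 at chr20:48656227-48656526 on the plus strand. Each is written 5′ to 3′ along its gene, and capitals mark matches on either strand to CAGGTG (an E-box), GGGCGG (the Sp1 box) and TATAAA (the TATA box).
Krt8: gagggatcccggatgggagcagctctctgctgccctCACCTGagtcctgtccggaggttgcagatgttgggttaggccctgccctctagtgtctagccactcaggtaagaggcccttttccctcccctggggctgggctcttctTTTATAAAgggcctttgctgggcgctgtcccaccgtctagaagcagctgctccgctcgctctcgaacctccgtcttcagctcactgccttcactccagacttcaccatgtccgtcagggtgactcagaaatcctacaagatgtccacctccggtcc
Krt18: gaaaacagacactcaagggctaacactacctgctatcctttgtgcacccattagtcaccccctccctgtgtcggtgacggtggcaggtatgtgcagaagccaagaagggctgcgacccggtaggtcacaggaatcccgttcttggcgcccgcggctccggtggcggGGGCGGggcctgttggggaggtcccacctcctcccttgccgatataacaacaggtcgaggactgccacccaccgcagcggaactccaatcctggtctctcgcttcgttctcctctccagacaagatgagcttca
Cd24: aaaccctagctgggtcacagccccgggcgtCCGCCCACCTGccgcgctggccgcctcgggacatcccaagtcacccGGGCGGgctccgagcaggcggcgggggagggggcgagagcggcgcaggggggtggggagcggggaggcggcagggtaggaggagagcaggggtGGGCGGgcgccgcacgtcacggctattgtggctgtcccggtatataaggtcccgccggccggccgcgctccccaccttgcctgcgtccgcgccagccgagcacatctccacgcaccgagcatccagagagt
CAGGTG occurred in 4 of the 5 windows (Krt8, Epcam, Cd24 and Cldn3) and in 18.8% of 33469 rat promoter windows of this length. GGGCGG occurred in 4 of 5 (Krt18, Epcam, Cd24 and Cldn3) and in 33.1% of all windows, and TATAAA in 1 of 5 (Krt8) and in 14.2%. In Cd24 the first GGGCGG match, on the minus strand, overlaps the E-box match, and in Krt8 the TATAAA matches of both strands overlap. The ETS core sequences CGGAAG and AGGAAG, searched the same way, were in 0 of 5 windows, against 16.6% and 34.5% of all windows. A match is a description of letters and not a site. In the RefSeq gene order, 0 protein-coding genes lie between Krt8 and Krt18, and 0 between Ehf and Elf5.

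The 9 tested genes had their highest group mean in saline-treated glands at 30 d. F344 controls at 30 d were highest for Elf5, Ehf, Cd24, Cldn3, Krt8, Epcam and Cdh1, and Cop controls at 30 d for Krt18 and Krt19. F344 controls at 6 h were lowest for Cldn3, Krt8, Krt18, Epcam, Krt19, Ehf and Cd24, and Cop NMU glands at 30 d for Elf5 and Cdh1. The range of the 12 group means was widest for Elf5 (2.54 on the log2 scale) and narrowest for Krt18 (1.20). Between neighbours in the order of group means, the arrays separated only for Cldn3, Cd24 and Ehf, in each of which all 3 F344 controls at 30 d lay above the group that followed (gaps of 0.45, 0.45 and 0.56), and for Cd24 between Cop controls at 30 d, the next highest group, and the group after it. All other neighbours in these orders overlapped. The root mean square SD within groups ran from 0.375 for Cldn3 to 0.529 for Elf5.

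**Figure D1:**
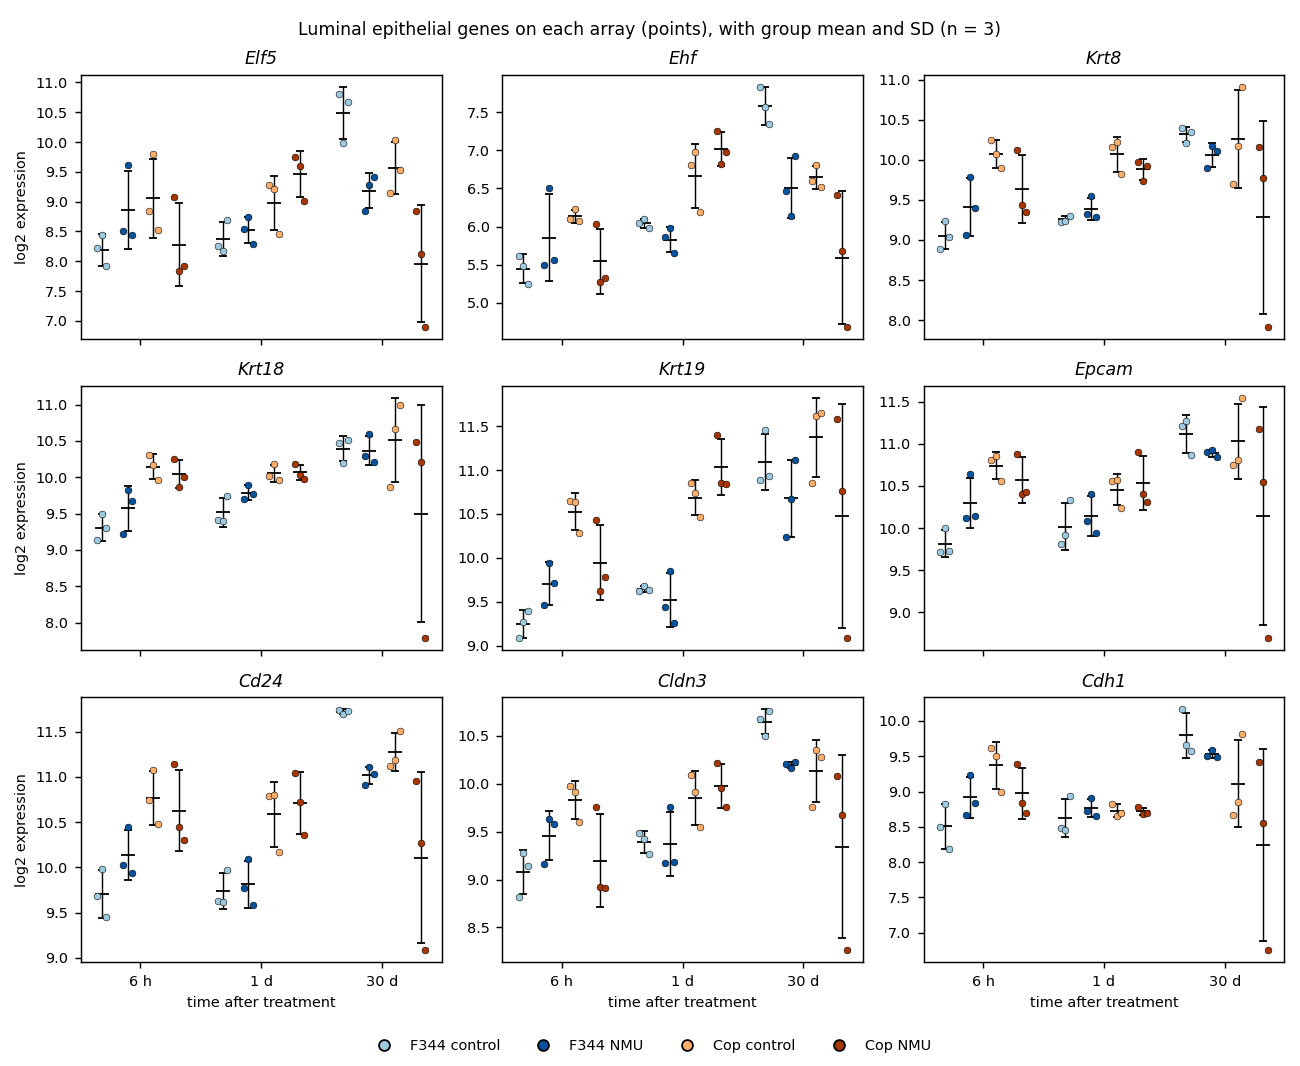
Log2 expression of the 9 tested genes (y axis) on every array (points) by time after treatment (x axis) and by strain and treatment (colour), with group mean and SD (n = 3). F344 controls at 30 d have the highest mean in 7 of the 9 panels, and Cop NMU array 3 at 30 d lies far below its 2 companions for the keratins, Epcam and Cdh1.

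How the genes changed in saline-treated glands between the early times and 30 d was compared first, in saline controls. In F344 all 9 rose, by 0.98 to 2.21, with a median of 1.41 against 0.05 over all tested probe sets. Of all tested probe sets 13.8% were called higher in this comparison. For each of the 9, every 30 d array lay above every early array. The share of all tested probe sets whose arrays separated was not counted, in this or any comparison below. Nor is the share with an unadjusted p under 0.05 given for any of them. The largest estimate was that of the alveolar regulator Elf5. Its early F344 controls read 8.23, 8.44 and 7.91 at 6 h and 8.25, 8.17 and 8.69 at 1 d, and the 30 d controls 10.81, 9.99 and 10.68. Elf5 thus rose by 2.21 (SE 0.358, 4.62-fold, limma adjusted p = 4.28e-05). Cd24, a glycosylated surface protein used to sort luminal cells, read 9.46 to 9.98 at 6 h and 9.61 to 9.97 at 1 d, against 11.74, 11.69 and 11.73 at 30 d. Those 3 values lie close together (SD 0.0242) and above the arrays of all other groups. Cd24 rose by 2.0 (SE 0.255, adjusted p = 1.27e-06), and Ehf, the other ETS factor, by 1.83 (SE 0.257, adjusted p = 4.1e-06).

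The structural genes had smaller estimates. Krt19, a keratin of luminal and progenitor cells, rose by 1.64 (adjusted p = 0.00032) and Cldn3, a tight junction claudin, by 1.41 (adjusted p = 0.000113). Cdh1, the adherens junction cadherin, rose by 1.23 (adjusted p = 0.00582) and Epcam, an epithelial adhesion protein, by 1.20 (adjusted p = 0.00376). The paired keratins rose least, Krt8 by 1.16 (adjusted p = 0.00392) and Krt18 by 0.98 (adjusted p = 0.0291). Leaving out single arrays left 8 or 9 of the 9 called, and the gene that lost its call was Krt18, in 5 of 9 cases. Whole glands were profiled, so fewer luminal cells and less RNA per cell cannot be told apart in any of these comparisons. Time after saline and age rise together, and collection day is part of both, so they cannot be told apart either.

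Markers of other cells moved in the same comparison. Of 13 skeletal muscle genes 12 fell (median −5.50), of 13 adipocyte genes 8 fell (median −0.56), and 13 of 13 cell division genes rose (median 1.66). Among all probe sets called in it, 50.9% were higher. A list score is the mean deviation of a list's tested genes from their means over all arrays. The muscle score was 1.88 to 2.84 on early F344 controls and −4.60, −0.42 and −3.32 on the 30 d controls, where the score of the 9 luminal genes was 1.05, 0.86 and 0.88 against −0.82 to −0.33 early. The muscle, adipocyte and cell division genes' part in the result was not tested.

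In Cop controls 0 of the 9 genes passed between the early times and 30 d, where 1.84% of all tested probe sets were called higher. By limma 2 had an unadjusted p under 0.05, Krt19 at 0.77 (SE 0.319, adjusted p = 0.141) and Cd24 at 0.60 (SE 0.255, adjusted p = 0.15). In both, all 3 arrays at 30 d lay above all 6 early arrays. All 9 differences were above 0, with a median of 0.41. Elf5 read 8.84, 9.79 and 8.53 at 6 h, 9.27, 9.22 and 8.46 at 1 d, and 9.15, 10.03 and 9.53 at 30 d, so its groups overlapped.

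The change with time differed between strains for 2 genes by the test of the difference itself (Cop change minus F344 change; 2.68% of all tested probe sets were called lower). Ehf gave −1.59 (SE 0.364, limma adjusted p = 0.0133), from changes of 0.25 in Cop and 1.83 in F344. Cd24 gave −1.40 (SE 0.361, adjusted p = 0.0252), from 0.60 in Cop and 2.0 in F344. Elf5 had the widest estimate but missed the threshold at −1.66 (SE 0.507, adjusted p = 0.0542), as did Cldn3 at −1.12 (adjusted p = 0.0632). All 9 differences were below 0, and 6 had an unadjusted p under 0.05. Without F344 control array 1 at 30 d, 0 genes passed. Without F344 control array 3 at 30 d, or Cop control array 1 at 30 d, 1 passed, Ehf in both cases. Without Cop control array 2 at 30 d, Ehf and Elf5 passed and Cd24 lost its call.

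**Figure D2:**
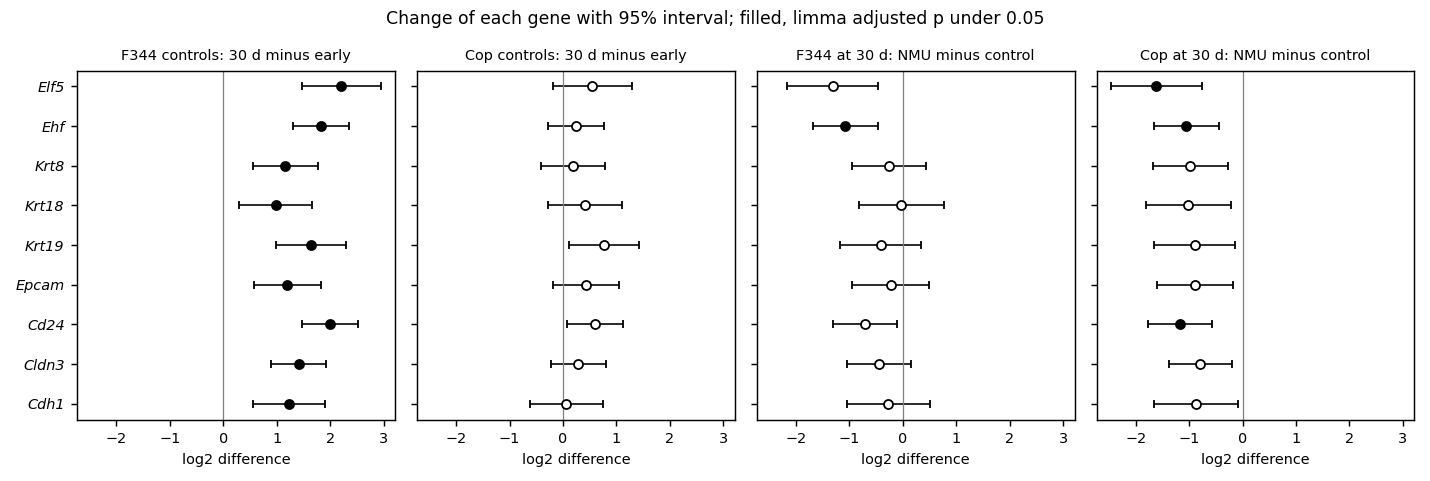
Log2 differences (x axis) of the 9 genes (y axis) with 95% intervals: controls at 30 d minus early controls in F344 and Cop, and NMU minus control at 30 d in F344 and Cop. Filled points had a limma adjusted p under 0.05: 9 in F344 controls, 0 in Cop controls, 1 in F344 after NMU (Ehf) and 3 in Cop after NMU (Elf5, Cd24 and Ehf).

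The strains were next compared in saline glands. At the early times, 6 of the 9 genes were higher in Cop than in F344, where 16.7% of all tested probe sets were called higher. The median over the 9 was 0.69, against 0.04 over all tested probe sets. Krt19 read 9.08, 9.27 and 9.39 at 6 h and 9.62, 9.68 and 9.63 at 1 d in F344. In Cop it read 10.65, 10.64 and 10.29 at 6 h and 10.86, 10.74 and 10.46 at 1 d. The ranges were apart, and the difference was 1.16 (SE 0.261, 2.23-fold, limma adjusted p = 0.00128).

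Cd24 was higher in Cop by 0.95 (adjusted p = 0.000941) and Krt8 by 0.92 (adjusted p = 0.00493), both without overlap between arrays. Epcam was higher by 0.68 (adjusted p = 0.0386), Ehf by 0.65 (adjusted p = 0.0188) and Cldn3 by 0.60 (adjusted p = 0.0261). Elf5 at 0.74 and Krt18 at 0.69 missed the threshold (adjusted p = 0.0583 for each), as did Cdh1 at 0.48 (adjusted p = 0.191). The arrays of Cldn3 and Krt18 did not overlap either, and those of Elf5, Epcam, Ehf and Cdh1 did. Without single arrays 4 to 7 genes passed. Krt8, Krt19 and Cd24 passed in each of those 12 fits, Epcam lost its call in 8, Cldn3 in 5 and Ehf in 1.

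Other cell types also differed between strains at these times. Among all probe sets called between the strains in early controls, 55.9% were higher in Cop. All 13 skeletal muscle genes were lower in Cop (median −4.39; scores −3.62 to −0.81 in Cop, 1.88 to 2.84 in F344), 12 of 13 adipocyte genes were lower (scores −0.31 to 0.17 against 0.22 to 0.51), and 12 of 13 cell division genes were higher. Their part in the result was not tested. Cop control array 1 at 6 h had an epidermal keratinocyte score of 2.80 and Cop NMU array 1 at 6 h one of 2.94, where 32 of the 36 arrays lay between −0.55 and 0.70. An F344 control at 1 d (1.57) and another Cop control at 6 h also lay above that range. Without the 2 Cop arrays numbered 1, 5 of the luminal genes passed, and Epcam did not (adjusted p = 0.0715). The other high-scoring arrays stayed in that fit.

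At 30 d no luminal gene differed between the strains past the threshold. In controls 0 of 9 genes passed (2.83% of all tested probe sets were called), 2 by limma had an unadjusted p under 0.05, and the median was −0.45. Ehf read 7.83, 7.56 and 7.34 in F344 and 6.60, 6.81 and 6.52 in Cop, which do not overlap, with a difference of −0.93 (SE 0.297, adjusted p = 0.0979). Elf5 also gave −0.93 (adjusted p = 0.328), with 1 Cop array at 10.03 above the lowest F344 array at 9.99. Cldn3 at −0.52 (limma adjusted p = 0.482) and Cd24 at −0.45 (adjusted p = 0.568) had arrays without overlap as well. Cdh1, whose arrays overlapped, gave −0.69 (adjusted p = 0.475). Krt18 and Krt19 were above 0, at 0.12 and 0.28, and Krt8 and Epcam were near it, at −0.06 and −0.09. Their 95% intervals were wide: that of Krt18 ran from −0.68 to 0.91.

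In the first day after NMU, no luminal gene passed in either strain. In F344 at 6 h, 0 of 9 were called, against 0.622% of all tested probe sets, and 0 had an unadjusted p under 0.05 by limma. All 9 differences were above 0, from 0.27 for Krt18 to 0.67 for Elf5, with a median of 0.41 and 0.06 over all tested probe sets. Elf5 read 8.51, 9.62 and 8.45 after NMU and 8.23, 8.44 and 7.91 in controls, just without overlap, and Epcam and Krt19 did not overlap either. NMU array 2 was the highest of that group for each of the 9 genes. Of the probe sets called in this comparison 60.5% were higher, and 42.5% after quantile normalization, which shifted the median of all probe sets to 0.0039; the 9 luminal genes stayed above 0. In F344 at 1 d, 0 of 9 were called (0.983% of all tested probe sets), 0 had an unadjusted p under 0.05 by limma, and the differences ran from −0.21 for Ehf to 0.27 for Krt18.

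In Cop at 6 h the 9 differences were all below 0, with a median of −0.44, and 0 of 9 were called where 6.57% of all tested probe sets were. By limma 1 gene had an unadjusted p under 0.05, Cldn3 at −0.63 (SE 0.290, adjusted p = 0.227). Ehf at −0.59 (adjusted p = 0.282) was the 1 gene whose arrays did not overlap, with NMU arrays up to 6.03 and controls from 6.07. Elf5 gave −0.78 (adjusted p = 0.322), from 8.84, 9.79 and 8.53 in controls to 9.08, 7.83 and 7.91 after NMU. NMU array 1 lay within the controls' range for Elf5, while arrays 2 and 3 lay below all controls. The same split held for the luminal score, at 0.26, −0.46 and −0.45 on NMU arrays 1, 2 and 3, against 0.28, 0.39 and −0.04 in controls. Beside it, T, NK and B cell scores were 0.01, −1.17 and −1.15, the keratinocyte score was 2.94 on array 1 and −0.22 and −0.16 on the others, and 10 of 14 fibroblast genes and 8 of 13 cell division genes rose. Their part in the luminal values was not tested.

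In Cop at 1 d, 0 of 9 were called (0.761% of all tested probe sets) and 0 had an unadjusted p under 0.05 by limma. The differences ran from −0.19 for Krt8 to 0.47 for Elf5. The strain difference in the NMU response was tested at each time. At 6 h it was below 0 for all 9 genes, with a median of −0.80, but 0 were called (0.877% of all tested probe sets). By limma 3 had an unadjusted p under 0.05: Elf5 at −1.45 (SE 0.585, adjusted p = 0.338), Cldn3 at −1.01 (adjusted p = 0.335) and Ehf at −1.0 (adjusted p = 0.36). At 1 d 0 were called (0.207% of all tested probe sets), with 0 at an unadjusted p under 0.05 and a median of 0.04.

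At 30 d after NMU the 9 genes were below their controls in both strains. In F344 the median was −0.41, against −0.02 over all tested probe sets, and the differences ran from −1.31 for Elf5 to −0.03 for Krt18. Only Ehf passed, where 2.63% of all tested probe sets were called lower. Ehf read 7.83, 7.56 and 7.34 in controls and 6.46, 6.13 and 6.92 after NMU. It fell without overlap by 1.07 on the log2 scale (SE 0.297, 2.10-fold lower, limma adjusted p = 0.041). That call is close to the threshold. It was lost in 5 of 6 fits that left out an array (differences of −1.28 to −0.89), and with quantile normalization (adjusted p = 0.0521), without the filter (adjusted p = 0.0548), with the replicate block (adjusted p = 0.0514) and with the compared groups alone (adjusted p = 0.0987).

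Elf5, the other ETS factor, read 10.81, 9.99 and 10.68 in F344 controls and 8.85, 9.28 and 9.42 after NMU, again without overlap. Its difference of −1.31 (SE 0.414) missed the threshold (adjusted p = 0.076), and it passed without F344 control array 2. Cd24 read 10.91, 11.11 and 11.03 after NMU against 11.69 to 11.74 in controls, a difference of −0.70 (SE 0.295, adjusted p = 0.186). Cldn3 (−0.45) and Krt8 (−0.26) also had arrays without overlap, but neither had an unadjusted p under 0.05. The remaining genes overlapped: Krt19 gave −0.41, Cdh1 −0.27, Epcam −0.23 and Krt18 −0.03, with a 95% interval of −0.82 to 0.76 for Krt18.

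Other genes changed beside these in F344 at 30 d. Of 13 cell division genes 11 fell (median −1.55), and of 13 milk and alveolar genes 4 fell, among them the phosphate transporter Slc34a2 (−3.32) and the milk fat globule protein Mfge8 (−0.83). The muscle score was 1.64, 1.23 and −0.26 after NMU against −4.60, −0.42 and −3.32 in controls, with 0 of 13 muscle genes called. Adipocyte scores were −0.20 to 0.18 after NMU and −0.43 to −0.29 in controls. Of 11 endothelial genes 3 rose (median 0.43), Pecam1 by 0.64, Tek by 0.66 and Egfl7 by 0.46, with scores of 0.06 to 0.07 after NMU and −0.44 to −0.21 in controls. Of 14 fibroblast genes 2 rose (median 0.37), the matrix genes Fbn1 by 0.63 and Eln by 0.85, with scores of 0.17 to 0.59 against −0.06 to 0.13. Their part in the luminal values was not tested. Of the probe sets called, 20.2% were higher, and 32.5% after quantile normalization.

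In Cop at 30 d, 3 genes fell after NMU, where 5.48% of all tested probe sets were called lower. The median was −0.98, against −0.0088 over all tested probe sets. By limma all 9 had an unadjusted p under 0.05, and 3 did without NMU array 3. Elf5 read 9.15, 10.03 and 9.53 in controls and 8.84, 8.13 and 6.90 after NMU. It fell by 1.61 (SE 0.414, 3.05-fold lower, limma adjusted p = 0.0157). Cd24 read 11.12, 11.19 and 11.51 in controls and 10.96, 10.27 and 9.09 after NMU, and fell by 1.17 (SE 0.295, adjusted p = 0.0141). Ehf read 6.60, 6.81 and 6.52 in controls and 6.42, 5.68 and 4.69 after NMU, and fell by 1.05 (SE 0.297, adjusted p = 0.0246). In these 3 genes the groups did not overlap, and NMU array 3 was the lowest and NMU array 1 the closest to the controls.

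The other 6 genes had differences of −1.01 to −0.79 and missed the threshold (adjusted p from 0.0657 for Krt8 to 0.147 for Cdh1). For them NMU array 1 lay within the range of the controls and array 3 far below it. Krt18 read 9.86, 10.67 and 10.99 in controls and 10.49, 10.22 and 7.78 after NMU. Without NMU array 3 the fall was smaller and 0 of 9 genes passed: Elf5 gave −1.08 (adjusted p = 0.178), Cd24 −0.66 (adjusted p = 0.173) and Ehf −0.60 (adjusted p = 0.279). Without NMU array 1 all 9 passed, and without NMU array 2, or control array 1, 5 did. Without control array 2 only Cd24 passed, and without control array 3 Ehf and Elf5 passed and Cd24 lost its call. With the compared groups alone, 0 passed.

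NMU array 3 also stood apart in other lists. Its luminal score was −1.73, against 0.48 and −0.13 on NMU arrays 1 and 2, and its milk score was −1.69 (−0.56 and −1.01 on the others). Its basal score was −0.55 (0.36 and 0.28), its endothelial score 0.97 (0.48 and 0.69), its fibroblast score 0.79 (0.13 and 0.52) and its macrophage score 1.08 (0.22 and 0.45). The T, NK and B cell score was −2.33 on array 3 and −2.5 on array 2, but 0.86 on array 1 and 0.57 to 1.02 in controls. Of those lists in this comparison, 9 of 13 lymphocyte genes and 6 of 13 milk genes fell, and 9 of 11 endothelial and 8 of 14 fibroblast genes rose. Among all probe sets called in it, 44.6% were higher. The macrophage genes Mrc1 (1.26) and Cd163 (1.21) rose, and no other tested macrophage gene was called. Cell division scores were −0.58 to −0.33 after NMU and 0.05 to 0.84 in controls. Without array 3, 0 lymphocyte genes passed by limma (median −2.04, and 10 had an unadjusted p under 0.05), 1 milk gene fell, and 3 endothelial genes and 1 fibroblast gene rose. In that fit 0 macrophage genes passed, and 2 of 13 cell division genes fell, Pcna and Cks2 (list median −1.25). Their part in the luminal values was not tested.

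The difference between the strains in the NMU response at 30 d was tested directly. By limma 0 of 9 genes were called, 0 had an unadjusted p under 0.05, and 0% of all tested probe sets were called. The estimates were −0.30 for Elf5 (95% interval −1.51 to 0.90), −0.46 for Cd24 (−1.32 to 0.39) and 0.02 for Ehf (−0.84 to 0.88). The widest gap was in Krt18 at −0.98 (−2.10 to 0.14), from −1.01 in Cop and −0.03 in F344. Without Cop NMU array 3 the count was again 0, with 0 at an unadjusted p under 0.05 by limma, and Krt18 gave −0.13 (−0.71 to 0.45), Elf5 0.23 (−0.90 to 1.35), Cd24 0.04 (−0.64 to 0.72) and Ehf 0.48 (−0.28 to 1.23). A miss of the threshold at this width does not show that the strains respond alike. The NMU and time comparisons at 30 d share control arrays, so a high control enters both.

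Elf5 and Ehf deviated by other amounts than Krt8 and Krt18 on the same arrays. This contrast was chosen after the values were seen and is given as a description. It does not set the factors apart from all other members. Group means ranged over 2.13 for Ehf, 2.12 for the keratin Krt19 and 2.01 for Cd24, against 1.26 for Krt8 and 1.20 for Krt18. On each array the mean deviation of Krt8 and Krt18 from their means over all arrays was subtracted from that of Elf5 and Ehf. F344 controls at 30 d gave 1.14, 0.83 and 0.84, the 3 highest of the 36 arrays. F344 NMU glands at 30 d gave −0.18, −0.42 and 0.27, and early F344 controls −0.34 to 0.17. In Cop at 30 d the controls gave 0.35, 0.26 and −0.67 and the NMU glands −0.44, −0.83 and 0.20. Cop NMU array 3 at 30 d, the lowest in both gene pairs, therefore had them close together, whereas array 2 had Elf5 and Ehf low at Krt8 and Krt18 levels near the average. Cop NMU glands gave −0.38, −0.84 and −0.80 at 6 h and 0.68, 0.58 and 0.30 at 1 d.

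**Figure D3:**
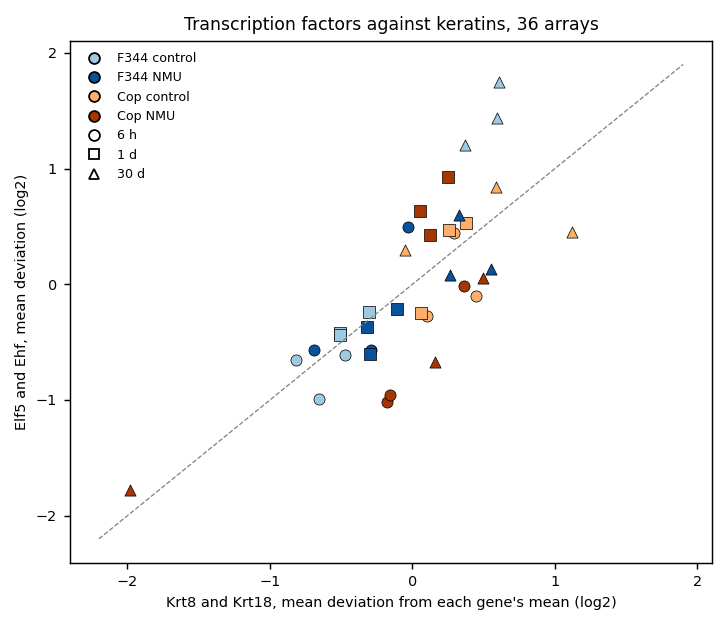
Mean deviation of Elf5 and Ehf (y axis) against that of Krt8 and Krt18 (x axis), log2, on the 36 arrays, by strain and treatment (colour) and time (symbol); the dashed line marks equal deviations. The 3 F344 controls at 30 d lie farthest above the line, and Cop NMU array 3 at 30 d lies alone at the lower left, near the line.

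The 9 genes followed one another across groups and arrays. Over the 12 group means, each gene's correlation with the mean of the other 8 ran from 0.77 for Cdh1 to 0.96 for Cldn3. Over the 36 arrays, as deviations from group means, it ran from 0.79 for Ehf to 0.94 for Krt8. The closest pair over arrays was Krt8 and Krt18 (r = 0.942), the filament partners, but Epcam and Cdh1 were nearly as close (r = 0.938). The least close pair was Krt18 and Ehf (r = 0.61). Over group means the closest pair was Epcam and Cd24 (r = 0.97) and the least close Krt19 and Cdh1 (r = 0.47). Without Cop NMU array 3 at 30 d the correlations over the other 35 arrays were lower, from 0.66 for Ehf to 0.89 for Cd24. Krt8 and Krt18 were still the closest pair (r = 0.856), narrowly above Epcam and Cd24 (0.851), Epcam and Cdh1 (0.846) and Elf5 and Cd24 (0.844). Krt18 and Ehf gave r = 0.26. Over group means they ran from 0.75 for Cdh1 to 0.96 for Cldn3, with Krt18 and Epcam closest (r = 0.96) and Krt19 and Cdh1 least close (r = 0.54). These points share arrays and cell composition, so the correlations are descriptions.

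Outside the set, the 8 genes with group means most like the members' mean were Rap1gap (r = 0.983 over 12 groups), Spint2 (0.978), Tfap2c (0.977), Sft2d2 (0.972), Muc4 (0.969), Cdcp1 (0.967), Esrp1 (0.961) and Cd9 (0.960). Spint2 is an inhibitor of membrane serine proteases, Tfap2c a transcription factor of luminal and other epithelia, and Esrp1 an epithelial splicing regulator. By deviations of the 36 arrays from their group means the closest were Plpp2 (r = 0.969), Irx1 (0.948), Spint2 (0.939), Irx3 (0.937), Cldn4 (0.936), Rab25 (0.925), Slc44a4 (0.924) and Tfap2c (0.922). Spint2 and Tfap2c are in both lists. Without Cop NMU array 3 at 30 d, the 3 closest by group means were again Rap1gap (r = 0.987), Spint2 (0.978) and Tfap2c (0.976), and by deviations over 35 arrays they were Prss8 (0.934), Plpp2 (0.924) and Muc4 (0.882).

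Other genes of the epithelium were set beside the members. Of 26 tested junction and identity genes outside the set, 23 rose in F344 controls between the early times and 30 d (median 1.22), among them the membrane protease St14 by 1.20 and the claudin Cldn7 by 2.12. In Cop controls 0 rose and 1 fell (median 0.26). After NMU at 30 d, 1 fell in F344 (Cgn, a tight junction scaffold, −0.92; median −0.38). In Cop 7 fell (median −0.71), among them the trafficking GTPase Rab25 (−1.14), the tricellular junction protein Lsr (−1.02) and St14 (−0.52). Without Cop NMU array 3, 0 of the 26 passed by limma (median −0.31), and 6 had an unadjusted p under 0.05. Of 10 hormone-sensing luminal genes, 6 rose in F344 controls with time (median 0.79), among them the growth factor Areg by 3.60. After NMU at 30 d 0 of these 10 passed in F344 (median −0.22) or in Cop (median −0.48, and 0.03 without array 3).

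Of 13 milk and alveolar genes, 10 rose in F344 controls with time (median 1.42) and 1 in Cop controls, and 9 were higher in early Cop than in early F344 controls. After NMU at 30 d in Cop, 6 fell (median −1.56), among them Slc34a2 (−2.89), the casein Csn1s1 (−1.56) and Mfge8 (−1.06). Without Cop NMU array 3, 1 of the 13 fell, Slc34a2 (−2.72), and Csn1s1 gave −1.21 (adjusted p = 0.0572). Of 13 basal genes 10 rose in F344 controls with time (median 0.64), with the basal keratins Krt5 at 1.69 and Krt14 at 1.66. After NMU at 30 d in F344, 0 of the 13 passed (median 0.0049). In Cop, Krt5 fell by 1.31 and Krt14 by 1.12, and the hemidesmosome integrin Itgb4 rose by 0.54. These 3 gave −0.66, −0.45 and 0.56 without Cop NMU array 3, when 0 of the 13 passed by limma and 2 had an unadjusted p under 0.05.

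Of 11 tested ETS and forkhead relatives of Elf5, Ehf and Foxa1, 2 rose in F344 controls with time, among them Elf3 by 0.48, and 0 passed after NMU at 30 d in either strain (medians −0.03 in F344 and −0.16 in Cop). Among 7 regulators and markers of the epithelial to mesenchymal transition, 2 rose in Cop at 30 d after NMU, Zeb1 by 0.40 and Vim by 0.30. In F344 0 passed, with Zeb1 at 0.14 (limma adjusted p = 0.545) and Vim at 0.28 (adjusted p = 0.0776). The strain difference in the response was 0.26 for Zeb1 and 0.02 for Vim (adjusted p = 0.999 for each). In Cop without NMU array 3, Zeb1 gave 0.29 (adjusted p = 0.212) and Vim 0.19 (adjusted p = 0.306).

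**Figure D4:**
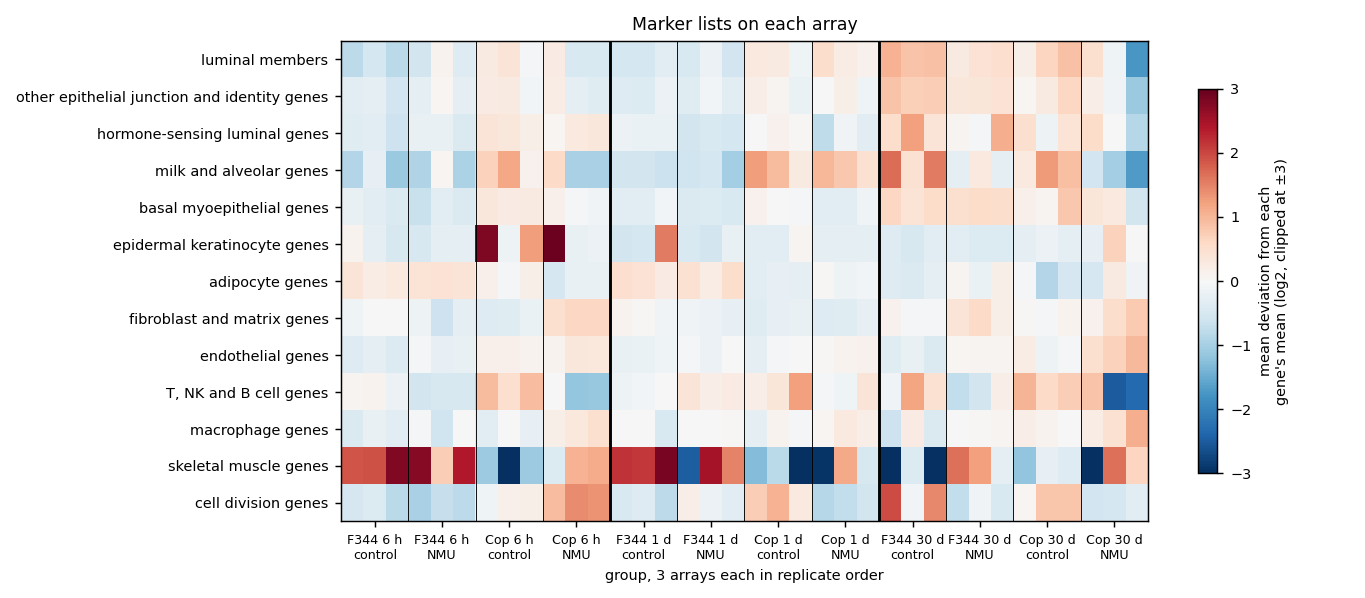
Score of each marker list (rows; mean log2 deviation of its tested genes from their means over all arrays, colour clipped at ±3) on the 36 arrays (columns, grouped by strain, treatment and time). The luminal row is highest in F344 controls at 30 d (0.86 to 1.05) and lowest on Cop NMU array 3 at 30 d (−1.73), and the muscle row varies most within groups.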

How the data were processed

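Mammary RNA was labelled and hybridised to 36 Affymetrix rat arrays. Per the labels' protocols, columns purified the RNA and cRNA was biotinylated. The submitters' processing notes name GCOS; the step from probe signals to values was not given in the sources used here. Log2 expression per probe set was deposited by the authors and used unchanged; genes were named from the platform annotation.

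Probe sets above the 40th percentile of their own array on at least 3 arrays were tested (20749; 57 control probe sets left out). The model, with 1 mean per group over all 36 arrays, used limma 3.58.1 (R 4.3.3; trend and robust options), with 14 two-sided comparisons, each Benjamini-Hochberg adjusted over all tested probe sets and called at 0.05; this was tested on simulated data. A gene was read by its probe set of highest mean. All members were named. From the other lists 3 or fewer genes per comparison were named, for a small p or because a result turned on them. From some lists, such as the adipocyte, skeletal muscle, lymphocyte and keratinocyte genes, none were named. Replicate numbers come from the labels. Deviations of same-numbered control and NMU arrays had every correlation over 0.1 only in Cop at 6 h (0.114, 0.142 and 0.435) and 1 d (0.202, 0.424 and 0.315). In Cop at 6 h, control array 2 was nearer to an NMU array of another number. F344 at 6 h gave −0.014, 0.350 and 0.507. The members and lists were chosen with earlier results of these data known, so they are no independent support. Alternatives were quantile normalization, a floor, other filters, plain empirical Bayes, a replicate block, the compared groups alone, mean probe sets and leaving out each array.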

Additional observations from a re-analysis of the deposited data

Results flagged for a closer look

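The change of 2 luminal genes between early and 30 d controls differed between the strains by the test of the difference. Ehf differed by −1.59 and Cd24 by −1.40 on the log2 scale (Cop change minus F344 change), and both rose in F344 controls without passing in Cop controls.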

How the results depend on the processing

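Of 174 values of called genes under other settings, 165 kept direction and call, 9 lost the call and 0 reversed; with single arrays left out, 178 of 213 kept it and 35 lost it. For NMU in F344 at 30 d, 0 genes passed with quantile normalization, no filter, the replicate block or the compared groups alone, and 0 to 1 without single arrays. The block changed no other call. With the compared groups alone, 0 passed for NMU in Cop at 30 d, 1 (Krt19) for time in Cop controls and 7 for the strain difference in time. Without single arrays those counts ran from 0 to 9, at 0, and from 0 to 3, and the early strain count from 4 to 7 and the F344 time count from 8 to 9. Leaving out both Cop arrays numbered 1 at 6 h, and Cop NMU array 3 at 30 d from the lists and correlations, was chosen after seeing the data. Quantile normalization turned the sign of Krt18 in Cop at 1 d and of Ehf in the strain difference of the NMU response at 30 d; neither was called. F344 control arrays 1 and 2 at 1 d were the closest replicates (root mean square difference 0.163, next 0.232). The cause of these changes was not tested, and 3 arrays a group limit every comparison.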
